A study of Mus musculus with 2 samples.

Results

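Transcripts of Il33, Il1rl1 and Il1rap were followed, 3 of the 28692 genes listed in each count matrix, and taken by gene symbol. They were selected on summed UMI counts of these same libraries, with earlier results known, so that their differences between the libraries are a description. MC38, a colon carcinoma line of the mouse, had formed tumours in mice of the strain C57BL/6 albino, and these tumours gave the cells. Pieces of dissociated tumour of 40 to 100 µm were kept in collagen gel at 2.8 mg/mL inside a microfluidic chip, and the spheroids were digested on day 6 of antibody treatment. The 1 library of the aPD-1 group came from cultures given the PD-1 blocking antibody RMP1-14 at 10 µg/mL, and the 1 library of the IgG group from cultures given the control antibody 2A3 at 10 µg/mL. PD-1 is an inhibitory receptor of T cells, and the aim stated for the series is to profile the tumour cells that remain when it is blocked.

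Il33 encodes interleukin-33, a cytokine of the IL-1 family that is stored in the nucleus of stromal, endothelial and epithelial cells and is released as an alarm signal when cells are damaged. Il1rl1 encodes its receptor ST2, which is made either as a membrane receptor or as a shorter soluble decoy that captures IL-33, and Il1rap encodes the co-receptor chain that membrane ST2 needs to signal through MyD88 and NF-κB. ST2 is best known from mast cells, group 2 innate lymphoid cells and regulatory T cells, whereas the soluble form was first found as a growth-responsive transcript of fibroblasts.

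Tumour cells had been sorted by flow cytometry, with markers not given in the sources used here, and were loaded on the 10x Chromium 3′ platform. Barcodes with at least 5000 unique molecular identifiers (UMIs, the counted transcripts) and at most 10% mitochondrial UMIs were kept as cells. These were 3356 aPD-1 cells with 61462778 UMIs and 2198 IgG cells with 49422640 UMIs, and their medians were 16577 UMIs in aPD-1 cells and 20663 UMIs in IgG cells. Passing barcodes were shared between the libraries in 8 cases. The 10 epithelial markers summed to 33 UMIs in aPD-1 cells and 43 UMIs in IgG cells, with Krt18 at 0 in both and Epcam at 0 in aPD-1 and 1 UMI in IgG, so the labelled carcinoma identity was not visible in these markers. The 10 fibroblast markers summed to 663 CPM in aPD-1 cells and 986 CPM in IgG cells, CPM being the UMIs of a gene scaled to a common total of all UMIs. As each group is 1 library, nothing could be tested, and the treatment cannot be told apart from sorting, loading or cell calling. Every interval below is a 95% interval that covers counting error only.

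Il1rl1 lies on the plus strand of chromosome 1 (GRCm38, 40429570 to 40465415), next to Il18r1 (40465552 to 40500854) and Il18rap (40515362 to 40551705), which encode the receptor chains of IL-18. Its transcripts start at a distal promoter, used mainly in mast cells and other blood cells, or at a proximal one used in fibroblasts. In the GENCODE M21 annotation the long transcript Il1rl1-202 has 567 codons and ends at 40465415, and the short transcripts Il1rl1-203 and Il1rl1-205 have 337 codons and end at 40448148 and 40446723. The deposited counts are per gene, so they separate neither the long from the short form nor the starts. The 250 bases before each of both starts, and before the start of Il18rap, are shown because Il1rl1 and Il18rap were often detected in the same cells. They were taken from RefSeq promoter windows on GRCm38.p6, plus strand, at chr1:40429320-40429569, chr1:40439379-40439628 and chr1:40515112-40515361. Capitals mark the GATA factor motifs AGATAA and TGATAA on either strand, and the AP-1 motif TGANTCA was searched in the same way.
Il1rl1 distal window: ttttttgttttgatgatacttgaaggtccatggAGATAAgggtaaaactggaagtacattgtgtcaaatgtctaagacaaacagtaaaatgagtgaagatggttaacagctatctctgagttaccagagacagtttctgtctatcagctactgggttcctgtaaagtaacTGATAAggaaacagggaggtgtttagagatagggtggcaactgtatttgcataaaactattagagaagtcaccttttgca
Il1rl1 proximal window: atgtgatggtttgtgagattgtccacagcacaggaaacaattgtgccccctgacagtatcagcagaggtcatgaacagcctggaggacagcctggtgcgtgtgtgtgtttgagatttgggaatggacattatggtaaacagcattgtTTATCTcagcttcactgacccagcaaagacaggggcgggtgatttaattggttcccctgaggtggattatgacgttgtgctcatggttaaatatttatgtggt
Il18rap window: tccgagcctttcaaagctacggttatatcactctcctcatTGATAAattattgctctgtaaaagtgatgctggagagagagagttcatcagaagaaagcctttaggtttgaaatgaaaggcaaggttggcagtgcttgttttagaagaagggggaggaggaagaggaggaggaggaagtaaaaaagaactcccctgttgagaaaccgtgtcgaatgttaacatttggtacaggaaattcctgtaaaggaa
The distal Il1rl1 window holds 1 AGATAA and 1 TGATAA, the proximal window 1 AGATAA on the reverse strand (read as TTATCT), and the Il18rap window 1 TGATAA. None of them holds TGANTCA. Of 32851 windows of this length, 9.99% hold AGATAA, 7.94% TGATAA and 6.75% TGANTCA, so such matches are common. Neither window of Il33 (chromosome 19) nor that of Il1rap (chromosome 16) holds any of the motifs. The motifs were chosen after the sequences had been seen.

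Il33, the ligand, was lower in the aPD-1 library. It had 831 UMIs in aPD-1 cells, or 13.5 CPM (interval 12.6 to 14.5), and 1163 UMIs in IgG cells, or 23.5 CPM (22.2 to 24.9), a ratio of aPD-1 over IgG of 0.575 (0.525 to 0.629). Il1rl1, the receptor, went the other way. It had 1166 UMIs in aPD-1 cells, or 19.0 CPM (17.9 to 20.1), and 295 UMIs in IgG cells, or 5.97 CPM (5.31 to 6.69), a ratio of 3.18 (2.79 to 3.62). Il1rap, the co-receptor, had 595 UMIs and 9.68 CPM in aPD-1 cells and 433 UMIs and 8.76 CPM in IgG cells. Its ratio of 1.10 had an interval of 0.975 to 1.25, so the libraries were not told apart for this chain by this scaling. With ribosomal protein and mitochondrial genes left out of the total, its ratio was 1.17 (1.04 to 1.33). Among the 6967 genes with a mean of at least 10 CPM, 0.531% were at least 1.5-fold higher in aPD-1 with an interval beyond 1.2-fold, Il1rl1 among them, and 3.01% were lower by the same rule, Il33 among them. These shares say how rare such ratios were, and no more is read from them because the genes were chosen for their ratios. The median log2 ratio of all these genes was −0.10, and relative to it the ratios became 3.41 for Il1rl1, 0.616 for Il33 and 1.19 for Il1rap.

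**Figure D1:**
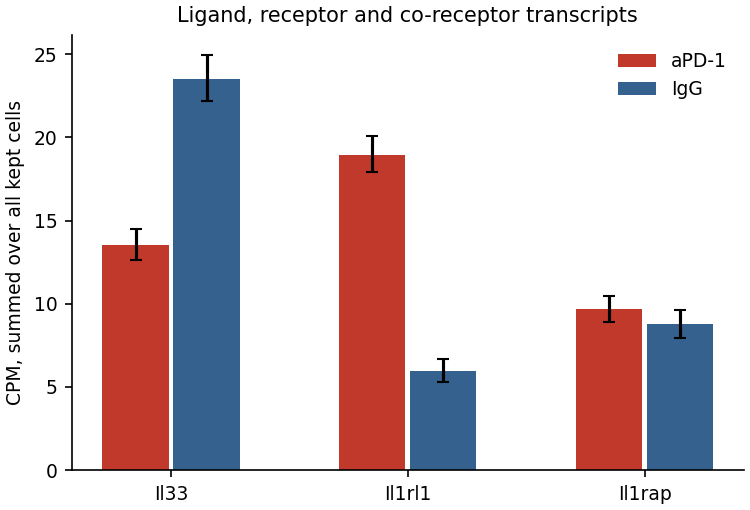
Level of Il33, Il1rl1 and Il1rap in CPM, summed over all kept cells of the aPD-1 library (red, left) and the IgG library (blue, right), with exact Poisson 95% intervals that cover counting error only. Il33 is lower in aPD-1 (13.5 against 23.5 CPM), Il1rl1 higher (19.0 against 5.97 CPM), and the intervals of Il1rap overlap.

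The transcripts of ligand and receptor were concentrated in few cells. Il1rl1 was detected in 453 of 3356 aPD-1 cells (13.5%, interval 12.4 to 14.7%) and in 115 of 2198 IgG cells (5.23%, 4.34 to 6.25%). Had the same UMIs been spread over all cells by depth alone, 28.5% of aPD-1 cells and 12.4% of IgG cells would have held one. A cell with any Il1rl1 UMI held 2.57 of them on average in both libraries, but these cells were shallower in aPD-1, with a median of 20446 UMIs in aPD-1 against 26457 UMIs in IgG. Scaled to depth, Il1rl1 stood at 115 CPM in the positive aPD-1 cells against 91.3 CPM in the positive IgG cells. With every cell thinned at random to 5000 UMIs, a positive cell held 1.46 Il1rl1 UMIs in aPD-1 against 1.31 in IgG. The highest cells held 17 Il1rl1 UMIs in aPD-1 against 31 in IgG, and without the top cell of each library the ratio was 3.50.

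Il33 was detected in 331 aPD-1 cells (9.86%, interval 8.87 to 10.9%) and in 337 IgG cells (15.3%, 13.9 to 16.9%), where an even spread would give 21.5% in aPD-1 and 39.1% in IgG. Its mean per positive cell was 2.51 UMIs in aPD-1 and 3.45 UMIs in IgG, where these cells had a median depth of 15690 UMIs in aPD-1 against 22392 UMIs in IgG. Scaled to depth, the positive cells stood at 140 CPM in aPD-1 against 144 CPM in IgG. The need for at least 1 UMI raises this value in shallower cells. With every cell thinned to 5000 UMIs, a positive cell held 1.52 Il33 UMIs in aPD-1 against 1.71 in IgG. At 10000 UMIs per cell it held 1.92 in aPD-1 against 2.26 in IgG. The highest cells held 23 Il33 UMIs in aPD-1 against 58 in IgG. Il1rap was spread differently. It was detected in 524 aPD-1 cells (15.6%) and 355 IgG cells (16.2%), close to the 16% in aPD-1 and 17.5% in IgG of an even spread, and 460 of these aPD-1 cells and 290 of these IgG cells held a single UMI. The variance of UMIs per cell over their mean was 1.10 in aPD-1 and 1.24 in IgG for Il1rap. It was 4.82 in aPD-1 and 7.13 in IgG for Il1rl1, and 5.45 in aPD-1 and 13.7 in IgG for Il33.

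**Figure D2:**
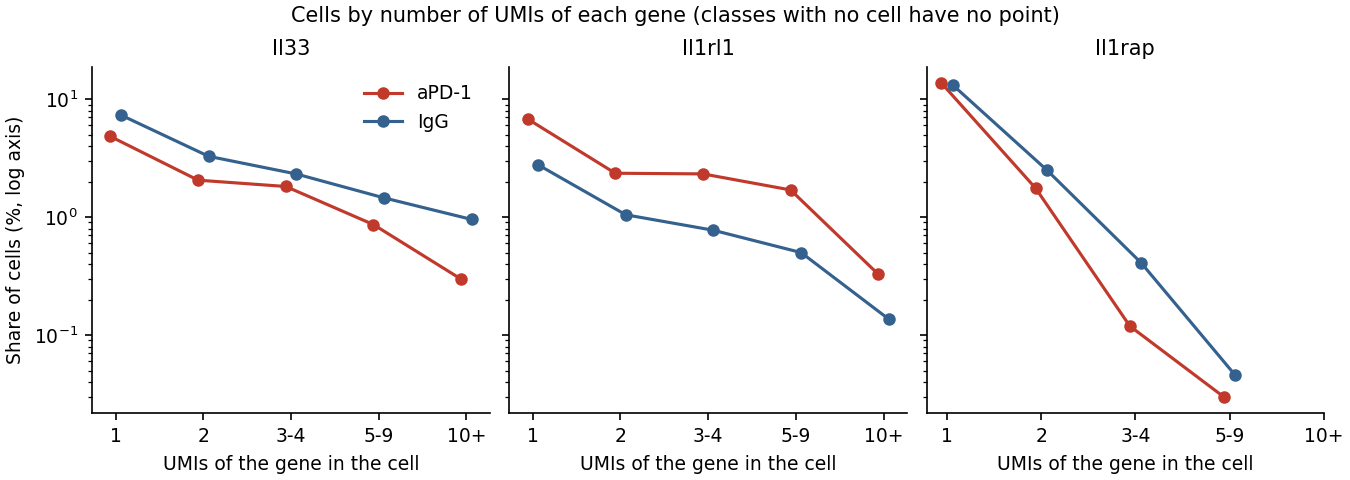
Share of cells (log axis, %) holding 1, 2, 3 to 4, 5 to 9 or at least 10 UMIs of each gene, aPD-1 in red and IgG in blue, with no point where no cell fell in a class. The Il1rl1 line of aPD-1 lies above that of IgG in every class and the Il33 line below, and no cell held 10 Il1rap UMIs.

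Depth differed between the libraries, so each cell was also thinned at random to 5000 UMIs, which left out no cell. Il1rl1 was then detected in 5.51% of aPD-1 cells (interval 4.76 to 6.34%) and 1.77% of IgG cells (1.26 to 2.42%). For Il33 the shares were 5.18% (4.46 to 5.99%) in aPD-1 and 7.05% (6.02 to 8.20%) in IgG, and for Il1rap 4.56% (3.88 to 5.32%) in aPD-1 and 3.55% (2.81 to 4.41%) in IgG. The ratio of the Il1rl1 shares was 3.11, and 4.80 when cells were thinned to 2000 UMIs. RNA free of cells adds UMIs to cells that do not express a gene, and aPD-1 barcodes with 1 to 99 UMIs, too few for a cell, held Il1rl1 at 14.2 CPM. Its part in the shares was not tested. The kept cells included an endothelial-like cluster (Plvap, Emcn, Esam), the only cluster to take a type name. Whether all other cells were tumour cells was not tested. In the endothelial-like cluster Il1rl1 had 0 UMIs in 4 aPD-1 cells (median 10131 UMIs) and 0 in 23 IgG cells (median 12707 UMIs). So few cells allow shares with a UMI of up to 60.2% in aPD-1 and 14.8% in IgG, and these limits do not bear on how many of the cells express the gene.

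Ligand and receptor were rarely found in the same cell. At 5000 UMIs per cell, 0 of 3356 aPD-1 cells held both Il1rl1 and Il33, which allows a share of up to 0.110% with a UMI of both at that depth, where 9.59 cells would be met if detection were independent. In IgG it was 0 of 2198 cells, which allows up to 0.168%, where 2.75 would be met. At 10000 UMIs per cell, 11 aPD-1 cells held both (23.3 if independent, odds ratio 0.441, interval 0.241 to 0.808), as did 4 IgG cells (6.68 if independent, odds ratio 0.628, 0.238 to 1.65). With all UMIs counted, 19 aPD-1 cells held both (44.7 if independent, odds ratio 0.372, interval 0.233 to 0.595), as did 11 IgG cells (17.6 if independent, odds ratio 0.592, 0.319 to 1.10). The IgG interval includes 1, so a deficit was not detectable in that library at this depth.

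Cells with at least 3 UMIs of either gene were few. In aPD-1, 146 cells held at least 3 Il1rl1 UMIs and 100 held at least 3 Il33 UMIs, in IgG 31 cells held at least 3 Il1rl1 UMIs and 104 at least 3 Il33 UMIs, and 0 cells of either library held at least 3 of both. If independent, 4.35 such cells would be met in aPD-1 and 1.47 in IgG, so the 0 of IgG is close to what independence gives. Set against cells of the same of 10 depth classes without Il1rl1, the cells with Il1rl1 had 0.27 times the Il33 level in aPD-1 (0.19 to 0.37) and 0.89 times in IgG (0.69 to 1.13). In IgG 1 cell with 44 Il33 UMIs and 2 Il1rl1 UMIs gave 44 of the 68 Il33 UMIs in question. In the other direction, cells with Il33 had 0.22 times the Il1rl1 level of matched cells in aPD-1 (0.14 to 0.32) and 0.34 times in IgG (0.20 to 0.54). These are values of cells that share 1 library each, so they describe the libraries.

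The receptor chains were met together more often than independence gives when all UMIs were counted, but not clearly so at matched depth. Both Il1rl1 and Il1rap were detected in 95 aPD-1 cells (70.7 if independent, odds ratio 1.53, interval 1.2 to 1.97) and in 29 IgG cells (18.6 if independent, odds ratio 1.84, 1.19 to 2.83). Cells with Il1rl1 were deeper than those without, with medians of 20446 against 15983 UMIs in aPD-1 and 26457 against 20478 UMIs in IgG. At 5000 UMIs per cell the counts were 14 cells in aPD-1 (odds ratio 1.84, 1.05 to 3.22) and 2 in IgG (odds ratio 1.82, 0.495 to 6.67), at 10000 UMIs per cell the odds ratio was 1.25 (0.841 to 1.85) in aPD-1 and 1.34 (0.584 to 3.06) in IgG, and with matched depth the Il1rap level of Il1rl1 cells was 1.11 times in aPD-1 (0.91 to 1.34) and 1.23 times in IgG (0.87 to 1.70), with intervals that include 1. Most cells with the receptor held no Il1rap UMI, 358 of 453 in aPD-1 and 86 of 115 in IgG. The same held for cells without it, with 2474 lacking an Il1rap UMI and 429 holding one in aPD-1. In IgG these were 1757 and 326 cells. Il1rap is thus missed in most cells, so a missing UMI does not show that a cell lacks the co-receptor.

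Clustering without the 3 genes gave 8 clusters, and ligand and receptor led in different ones. In aPD-1, Il1rl1 was highest in cluster 0, led by Hist1h2ap, Hist1h1b, Top2a, Rrm2 and Aurkb, genes of DNA replication and mitosis, with 29.8 CPM in 1237 aPD-1 cells and 11.9 CPM in 505 IgG cells in that cluster. That cluster held 867 of the 1166 Il1rl1 UMIs of aPD-1 and 185 of the 295 of IgG. In IgG the level was higher in cluster 5 (Mx1, Ccl4, Oasl1, Gadd45a, Krt17), which had 23.8 CPM in 143 aPD-1 cells and 16.9 CPM in 98 IgG cells. It was low in cluster 4 (Gsn, Lbp, Cpq, Maged2, Cilp), which includes matrix and acute-phase genes, with 2.99 CPM in 155 aPD-1 cells and 1.79 CPM in 393 IgG cells.

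Il33 was distributed the other way. Among the 6 larger clusters it was highest in cluster 4, with 35.6 CPM in aPD-1 against 38.1 CPM in IgG, and low in cluster 0, with 6.61 CPM in aPD-1 against 9.29 CPM in IgG. Cluster 1 (Rac2, Prg4, Spib, Fcer1g, Apoe) had 26.5 CPM in both libraries. The libraries stood furthest apart for Il33 in cluster 2 (Cdc20, Hmmr, Cenpe, Cenpa, Tpx2), which holds genes of the G2 and M phases, with 9.53 CPM in aPD-1 against 32.2 CPM in IgG, and in cluster 3 (Mt2, Ero1l, Mt1, Car6, Car9), which holds hypoxia genes, with 9.84 CPM in aPD-1 against 23.1 CPM in IgG. Of the 27 endothelial-like cells, the 4 in aPD-1 had 2 Il33 UMIs (40.3 CPM, interval 4.88 to 146) and the 23 in IgG had 12 (38.3 CPM, 19.8 to 67.0). The last cluster, 7 (Fam132a, Tex101, Tex40, Fthl17e, Ctsh), held 6 aPD-1 cells with 1 Il33 UMI and 17 IgG cells with 1. A finer clustering (resolution 1) set apart 19 aPD-1 and 75 IgG cells with more Il33. They had 60.6 CPM in aPD-1 (38.8 to 90.1) against 122 CPM in IgG (108 to 138). These IgG cells held 252 of the 1163 Il33 UMIs of IgG, and these aPD-1 cells 24 of the 831 of aPD-1.

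Within the 5 clusters that held at least 100 cells of each library, Il1rl1 was higher in aPD-1 in 5 of 5, with ratios of 1.67 to 4.38 and an interval beyond 1 in 4 of them. Il33 was lower in 4 of 5, with ratios of 0.296 to 1.0 and an interval below 1 in 3. Within clusters made without the cell cycle genes, Il33 was higher in aPD-1 in 1 of 5, with a ratio of 1.64 (1.37 to 1.97). In the main clusters, Il1rap lay on both sides of 1, at 0.737 to 1.2, with every interval including 1. The libraries differed in make-up, with cluster 0 holding 36.9% of aPD-1 and 23.0% of IgG cells, and cluster 4 holding 4.62% of aPD-1 and 17.9% of IgG cells. With the IgG cluster shares given to both libraries, the ratio was 2.37 for Il1rl1 and 0.724 for Il33.

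**Figure D3:**
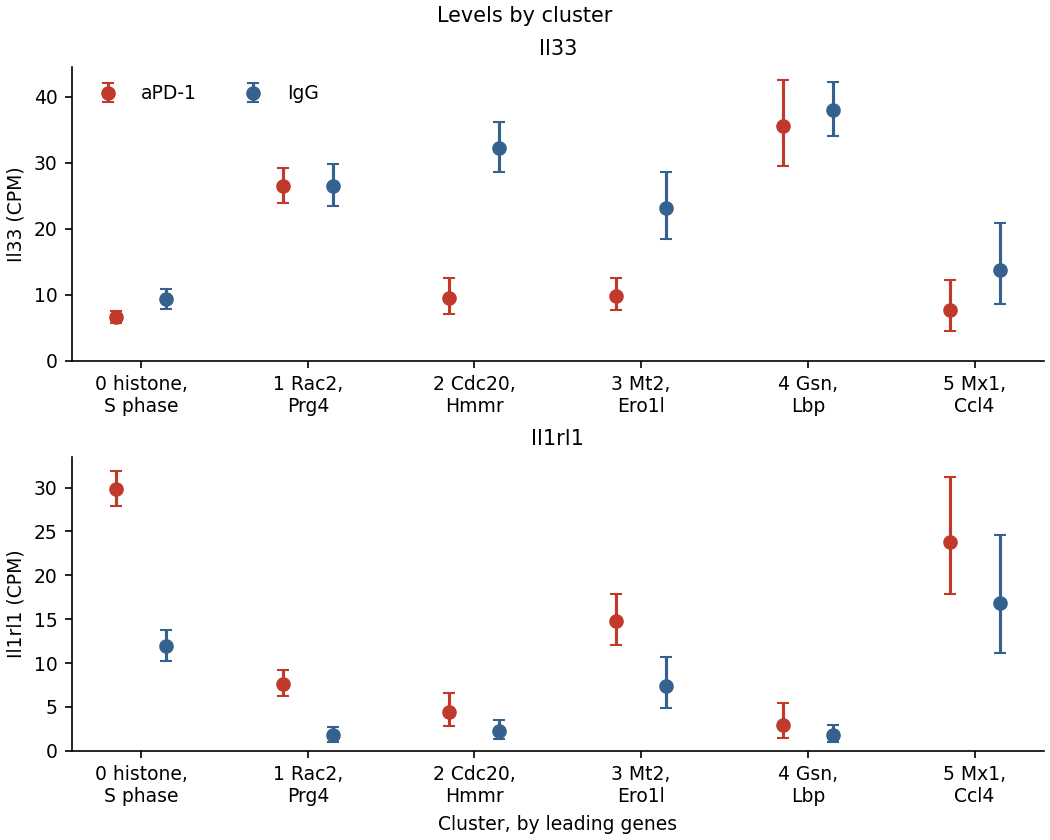
Level of Il33 (upper) and Il1rl1 (lower) in CPM per cluster, aPD-1 left and IgG right, with exact Poisson 95% intervals that cover counting error only, for the 6 clusters of most cells. Il33 is highest in cluster 4 and low in cluster 0, Il1rl1 is highest in cluster 0 for aPD-1 and low in cluster 4, and the aPD-1 point of Il1rl1 lies above the IgG point in each cluster shown.

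Cell cycle phase gave the same contrast between the libraries in each phase. Il1rl1 stood at 27.7 CPM in aPD-1 against 13.8 CPM in IgG for cells scored S, at 21.8 CPM in aPD-1 against 6.00 CPM in IgG for G2M, and at 11.5 CPM in aPD-1 against 3.24 CPM in IgG for G1. Il33 stood at 12.3 CPM in aPD-1 against 19.4 CPM in IgG in S, 5.99 CPM in aPD-1 against 18.3 CPM in IgG in G2M, and 22.4 CPM in aPD-1 against 29.5 CPM in IgG in G1. Both libraries thus had the highest Il1rl1 level in S and the highest Il33 level in G1. At matched depth the libraries differed for Hist1h1b, a gene of cluster 0. In cells with Il1rl1 it stood at 1.35 times the matched level in aPD-1 (1.24 to 1.47) and 0.60 times in IgG (0.44 to 0.80). By number of UMIs, G2M cells held more Il1rl1 than S cells, at 568 against 326 in aPD-1 and 117 against 106 in IgG. Depth touched the size of the differences. In the lowest tertile of cells by depth (up to 14538 UMIs) Il1rl1 had a ratio of 2.51 (1.64 to 4.0), in the middle tertile 6.07 (4.45 to 8.47) and in the highest tertile (over 22099 UMIs) 2.91 (2.49 to 3.41). For Il33 the direction turned in the lowest tertile, with 20.4 CPM in aPD-1 against 18.9 CPM in IgG (ratio 1.08, interval 0.861 to 1.35), whereas the middle tertile gave 0.654 (0.553 to 0.774) and the highest tertile 0.366 (0.315 to 0.423).

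Of the other ligands of the IL-1 family, little was found. Il18 had 1.03 CPM in aPD-1 against 1.68 CPM in IgG (ratio 0.610, interval 0.433 to 0.857), and Il1b, the inflammasome cytokine, had 9 UMIs in aPD-1 against 17 in IgG. Il1rn, the natural antagonist of the IL-1 receptor, had 4 UMIs in aPD-1 against 7 in IgG, and Il1a and the 5 matched genes of the IL-36 and IL-38 group had 0 in both. Il18bp, which captures IL-18, had 12 CPM in aPD-1 against 12.3 CPM in IgG (ratio 0.974, 0.874 to 1.09).

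Among the receptors, Sigirr, a damping member of the family, had 15.8 CPM in aPD-1 against 13.1 CPM in IgG (ratio 1.2, interval 1.09 to 1.33). Il1r1, the receptor of IL-1, had 2.68 CPM in aPD-1 against 3.46 CPM in IgG (0.776, 0.623 to 0.967), and its decoy Il1r2 had 10 UMIs in aPD-1 against 5 in IgG. Il18rap had 303 UMIs and 4.93 CPM in aPD-1, against 147 UMIs and 2.97 CPM in IgG (1.66, 1.36 to 2.03). Il18r1, the partner chain of Il18rap in the IL-18 receptor and the gene that lies between it and Il1rl1, had 0 UMIs in aPD-1 against 2 in IgG, and Il1rl2, the IL-36 receptor, had 0 UMIs in aPD-1 against 3 in IgG. On this stretch of chromosome 1 the ratio was thus above 1 with its interval for Il1rl1 and Il18rap, and below 1 for Il1r1.

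Most of the machinery below the receptor was present in both libraries. Of the 34 matched genes of IL-1 receptor signalling, 20 had a mean of at least 10 CPM and 0 were past 1.5-fold in either direction, beside 3.55% of all genes, so that this 0 is near the background and no result about the list. Myd88, the adaptor that ST2 and its co-receptor recruit, had 17.5 CPM in aPD-1 against 21.7 CPM in IgG (ratio 0.808, interval 0.742 to 0.880), and the kinase Irak1 had 33.5 CPM in aPD-1 against 28.7 CPM in IgG (1.17, 1.09 to 1.25). The highest ratio of these 20 was that of Nfkb1, the precursor of the NF-κB subunit p50, at 1.26 (1.21 to 1.31), followed by the p38 kinase activator Map2k3 at 1.19, Irak1 and Ikbkb at 1.12. Among these 20 genes the lowest beside Myd88 were Chuk (0.846), Nfkbia (0.861) and Nfkbib (0.872), of which the last 2 encode inhibitors that hold NF-κB in the cytoplasm. Below 10 CPM, Ube2v1, a cofactor of ubiquitin chain building, stood lower, at a ratio of 0.553 (interval 0.467 to 0.654), and Map2k6, an activator of p38, had a ratio of 0.667 (0.584 to 0.762). Both were named after their values were seen. Irak3, a damper of this pathway in macrophages, had 0 UMIs in aPD-1 against 2 in IgG.

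Among proteins that process IL-33 or set the turnover of ST2, 11 of the 19 listed reached 10 CPM, and 1 was past the rule, beside 3.55% of all genes. With so few genes this count is no result about the list. The gene past the rule was Gsdmd, the pore protein gasdermin D, through which IL-33 can leave cells, with 7.47 CPM in aPD-1 against 13.5 CPM in IgG (ratio 0.552, interval 0.489 to 0.622). The inflammasome protease Casp1 had a ratio of 0.739, Casp8 0.782 and Capn2 0.833. At the upper end stood the deubiquitinases Usp21 at 1.10 and Usp22 at 1.10, with Tmed1, an ST2-binding trafficking protein, at 0.991 and Capn1 at 0.933. The mast cell and neutrophil proteases that cut IL-33 were absent or nearly so, with Cma1, Mcpt4 and Ctsg at 0 in both libraries and Elane at 2 UMIs in aPD-1 against 0 in IgG.

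Of 27 genes known to be induced by IL-33, 13 reached 10 CPM, with 1 higher and 2 lower in aPD-1. Socs1, a suppressor of cytokine signalling that interferons also induce, had 78.7 CPM in aPD-1 against 47.7 CPM in IgG (ratio 1.65, interval 1.57 to 1.74). Vcam1, an adhesion molecule, had 178 CPM in aPD-1 against 289 CPM in IgG (0.615, 0.600 to 0.631), and Bcl3, an NF-κB cofactor, 15.0 CPM in aPD-1 against 23.1 CPM in IgG (0.650, 0.596 to 0.710). Socs3 and Relb followed at 0.698 and 0.754, and Ptgs2, Nfkbiz and Cxcl1 stood at 1.18, 1.10 and 0.990. The type 2 cytokines made by IL-33-responsive lymphoid cells were missing, with Il5 and Il13 at 0 in both libraries and Il4 at 2 UMIs in aPD-1 against 0 in IgG. Over all 6 lists, 59 genes reached 10 CPM, of which 2 were higher (Il1rl1 and Socs1) and 5 lower (Il33, Gsdmd, Vcam1, Bcl3 and Fos). Il1rl1 and Il33 had been selected on these same counts, so their calls came with the selection and no excess is read from this count. The median log2 ratio of the 59 genes was −0.10, like that of all genes, and 3.55% of all genes were past the rule in either direction.

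Known regulators of Il1rl1 differ between cell types. Of the GATA factors that drive it in mast cells and lymphoid cells, Gata1 had 0 UMIs in both libraries, Gata2 had 1.63 CPM in aPD-1 against 2.75 CPM in IgG, and Gata3 had 6.74 CPM in aPD-1 against 8.24 CPM in IgG. Of the AP-1 factors, which carry the growth response of fibroblasts, Fosl1 had the highest ratio of the list, with 57.1 CPM in aPD-1 against 39.1 CPM in IgG (ratio 1.46, interval 1.38 to 1.55). Hras, whose oncogenic form raises ST2 in fibroblasts, followed at 1.31, then Fosl2 at 1.15 and Jund at 1.14. Fos was past the rule in the other direction, with 653 CPM in aPD-1 against 1039 CPM in IgG (0.628, 0.620 to 0.636), followed by Junb (0.705), Jun (0.747) and Atf3 (0.788). AP-1 genes therefore stood on both sides of 1.

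Many markers of the cells best known for ST2 had 0 UMIs, and others were present at low levels. Of 11 mast cell markers, 7 had 0 UMIs in each library, Cpa3 among them, and Kit had 8 UMIs in aPD-1 against 17 in IgG. The mast cell list summed to 2.87 CPM in aPD-1 cells with Il1rl1 and 2.51 CPM in those without, and to 3.71 CPM in IgG cells with Il1rl1 and 3.98 CPM in those without. Of 9 markers of group 2 innate lymphoid cells, 5 had 0 UMIs in each library, Il7r among them. The list summed to 9.71 CPM in aPD-1 against 9.83 CPM in IgG, most of it Gata3. Areg followed with 118 UMIs in aPD-1 against 48 in IgG. Klrg1 had 55 UMIs in aPD-1 against 14 in IgG, and Rora 10 in aPD-1 against 17 in IgG. That list stood at 9.19 CPM in aPD-1 cells with Il1rl1 and 9.82 CPM in those without, and at 7.74 CPM in IgG cells with Il1rl1 and 9.98 CPM in those without. Of 13 T or NK cell markers, 4 were at 0 in the aPD-1 library and 6 at 0 in the IgG library, with Cd3e at 0 in both. Cd3d had 36 UMIs in aPD-1 against 38 in IgG. Trac had 39 UMIs in aPD-1 against 18 in IgG, and Il2ra 5 in aPD-1 against 18 in IgG. The list summed to 1.71 CPM in aPD-1 against 1.76 CPM in IgG. It stood higher with Il1rl1, at 2.96 CPM (30 UMIs) in aPD-1 cells with the receptor and 1.46 CPM in those without, and at 2.48 CPM (8 UMIs) in IgG cells with it and 1.71 CPM in those without. The part of such cells in the Il1rl1 level was not tested. Macrophage markers summed to 5.42 CPM in aPD-1 against 30.9 CPM in IgG, and endothelial markers to 20.7 CPM in aPD-1 against 58.6 CPM in IgG. In aPD-1, cells with Il1rl1 had 4.55 CPM of macrophage and 20.8 CPM of endothelial markers, against 5.59 CPM of macrophage and 20.7 CPM of endothelial markers in cells without. In IgG, cells with Il1rl1 had less of both, at 5.88 CPM of macrophage and 16.7 CPM of endothelial markers, against 32.7 CPM of macrophage and 61.5 CPM of endothelial markers in cells without Il1rl1.

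The genes that went with Il1rl1 were sought by setting the cells with at least 1 Il1rl1 UMI against cells without it in the same of 10 depth classes, in each library alone. Of the 4644 genes with at least 20 CPM in both libraries, 0.366% (17 genes) were at least 1.5-fold higher with Il1rl1 in both libraries and 1.03% (48 genes) at least 1.5-fold lower. At the top stood Ier3, an immediate early gene of stress and growth signals, at 2.08 times the level of matched cells in aPD-1 (interval 2.03 to 2.14) and 2.67 times in IgG (2.55 to 2.79). The neutrophil chemokine Cxcl1 came next, at 1.93 times in aPD-1 (1.88 to 1.98) and 1.89 times in IgG (1.81 to 1.98), while its level in the whole libraries was 326 CPM in aPD-1 against 329 CPM in IgG.

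Others of the 12 highest were Sms, the spermine synthase, at 1.84 times in aPD-1 and 2.26 times in IgG, and Ankrd1, a YAP target, at 1.74 times in aPD-1 and 2.13 times in IgG. Hbegf, a ligand of the EGF receptor, stood at 1.69 times in aPD-1 and 2.03 times in IgG, and Gdnf, a neurotrophic factor, at 1.81 times in aPD-1 and 1.55 times in IgG. Dusp9, a phosphatase of MAP kinases, stood at 1.59 times in aPD-1 and 1.71 times in IgG, Dffb, the caspase-activated nuclease, at 1.67 times in aPD-1 and 2.05 times in IgG, and the splicing factor Zrsr2 at 1.65 times in aPD-1 and 1.80 times in IgG. Rsbn1, Fam195a and Zfos1 completed the list, at 1.54 to 1.69 times in both libraries. Of the AP-1 factors, Fosl1 stood at 1.27 times in aPD-1 (1.17 to 1.36) and 1.56 times in IgG (1.35 to 1.80), and Fos at 0.684 times in aPD-1 and 0.721 times in IgG.

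The genes lowest in cells with Il1rl1 included Cd9, a tetraspanin, at 0.46 times in aPD-1 (interval 0.43 to 0.49) and 0.54 times in IgG (0.50 to 0.59). The cytoskeletal adaptor Pdlim2 stood at 0.44 times in aPD-1 and 0.50 times in IgG, the MYC antagonist Mxd4 at 0.50 times in aPD-1 and 0.51 times in IgG, and Rgs3, a regulator of G protein signalling, at 0.49 times in aPD-1 and 0.53 times in IgG. Lipid phosphatase Plpp3 stood at 0.52 times in aPD-1 and 0.53 times in IgG, the matrix protein Matn2 at 0.54 times in aPD-1 and 0.49 times in IgG, the gelatinase Mmp9 at 0.55 times in aPD-1 and 0.47 times in IgG, and the clock repressor Bhlhe41 at 0.54 times in aPD-1 and 0.52 times in IgG. Medag, Ecscr and Ppp3ca, a catalytic subunit of calcineurin, lay between 0.50 and 0.56 times the matched level in both libraries. All 24 genes at both ends, 12 higher and 12 lower, kept their direction in both libraries when cells were matched for cluster as well as depth, when at least 2 Il1rl1 UMIs were asked, and by correlation over cells. The 24 were chosen by their ratios in these same cells, so this outcome was largely set by the choice and adds no separate support. Matching for cluster reduced the genes past 1.5-fold to 8 higher and 11 lower.

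Genes of lower level, from 2 CPM, were added after the data had been seen. Of 10040 such genes, 0.966% (97) were higher and 2.05% (206) lower with Il1rl1 in both libraries. Cxcl2, a second neutrophil chemokine and a known target of IL-33, was at 4.18 times in aPD-1 (interval 3.70 to 4.70) and 3.95 times in IgG (3.25 to 4.76), and at 4.02 times in aPD-1 and 3.80 times in IgG when cells were also matched for cluster. Ptgs2, the inducible cyclooxygenase, stood at 2.55 times in aPD-1 and 3.56 times in IgG, and Grem1, a BMP antagonist, at 2.83 times in aPD-1 and 5.21 times in IgG. The integrin chain Itga6 stood at 2.93 times in aPD-1 and 2.91 times in IgG, and Lpl, lipoprotein lipase, at 2.08 times in aPD-1 and 3.51 times in IgG.

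Il18rap, the neighbour of Il1rl1, was among the genes most tied to it. With Il1rl1 it stood at 2.94 times the matched level in aPD-1 (interval 2.44 to 3.51) and 7.32 times in IgG (5.48 to 9.57), and at 2.62 times in aPD-1 and 5.40 times in IgG within clusters. Both were detected in 98 aPD-1 cells (33.6 if independent, odds ratio 5.03, 3.82 to 6.64) and in 33 IgG cells (5.86 if independent, odds ratio 10.2, 6.46 to 16.2). Thinned to 5000 UMIs per cell, the counts were 9 aPD-1 cells (3.80 if independent) and 4 IgG cells (0.586 if independent). Across aPD-1 cells with 0, 1, 2, 3 to 4 and at least 5 Il1rl1 UMIs, Il18rap stood at 3.56, 8.94, 12.9, 15.0 and 16.2 CPM. Across the same classes in IgG it stood at 2.03, 11.5, 18.3, 16.5 and 26.6 CPM. With Il33, in contrast, Il18rap was at 0.30 times in aPD-1 (0.14 to 0.56) and 0.51 times in IgG (0.27 to 0.87). Joint detection of Il33 and Il18rap was less clear in IgG, with odds ratios of 0.303 (0.151 to 0.606) in aPD-1 and 0.673 (0.370 to 1.23) in IgG. Thinned to 5000 UMIs, 4 IgG cells held both (2.33 if independent), and at 10000 UMIs 0 did (4.31 if independent). Il1rl1 and Il18rap are on the same strand with Il18r1 between them at 0 UMIs in aPD-1 against 2 in IgG, and whether reads of one were counted for the other was not tested.

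Other genes did not all follow the number of Il1rl1 UMIs evenly. Ier3 went from class to class upwards in aPD-1, at 265, 476, 570, 699 and 914 CPM, and Cd9 downwards, at 203, 112, 103, 71.4 and 62.9 CPM. Cxcl2 was flat between 0 and 1 Il1rl1 UMI in aPD-1 and reached 107 CPM in the 68 cells with at least 5, whereas the 14 such cells of IgG had 0 Cxcl2 UMIs and the 17 IgG cells with 3 to 4 had 88.1 CPM. So few cells decide these values that single cells can carry them.

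**Figure D4:**
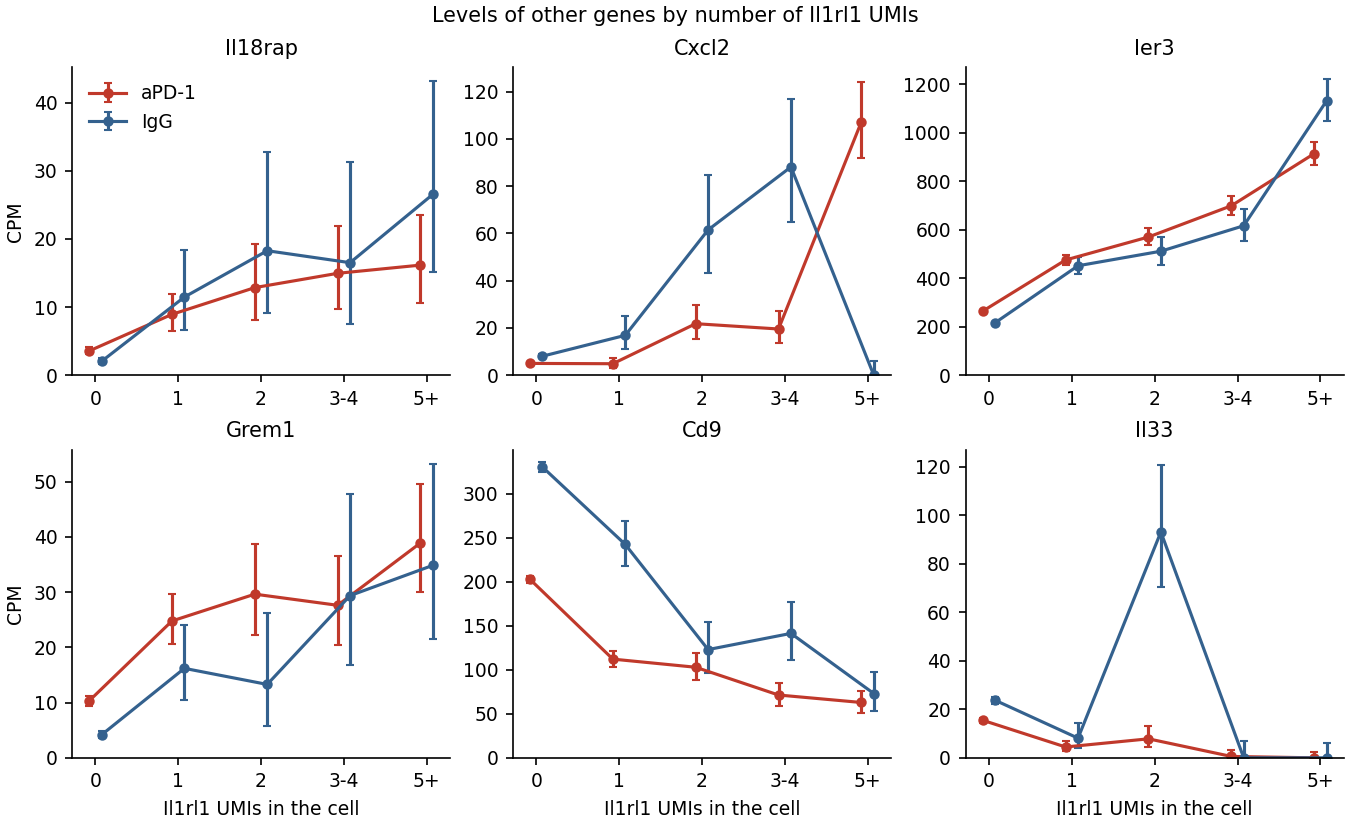
Level in CPM of Il18rap, Cxcl2, Ier3, Grem1, Cd9 and Il33 in cells with 0, 1, 2, 3 to 4 or at least 5 Il1rl1 UMIs, aPD-1 in red and IgG in blue, with exact Poisson 95% intervals that cover counting error only. Il18rap, Ier3 and Grem1 are higher and Cd9 lower in every class with Il1rl1 than in the cells with none, and the IgG peak of Il33 at 2 Il1rl1 UMIs comes mostly from 1 cell with 44 Il33 UMIs.

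The same comparison for Il33, added after the data had been seen, gave other genes. From 2 CPM upwards, 1.15% of 10040 genes (115) were higher and 0.378% (38) lower with Il33, Il1rl1 among the lower ones. Of the 4644 genes, 0.517% (24 genes) were at least 1.5-fold higher with Il33 in both libraries and 0.0215% (1 gene, Cdc20) lower. The highest were Lsp1, an actin-binding protein, at 2.40 times in aPD-1 (interval 2.23 to 2.58) and 1.99 times in IgG (1.87 to 2.13), the transglutaminase Tgm2 at 1.90 times in aPD-1 and 1.87 times in IgG, and Tmem173, which encodes the DNA sensing adaptor STING, at 1.86 times in aPD-1 and 1.96 times in IgG. Several known interferon-induced genes were among the 12, with Cxcl9, a T cell chemokine, at 2.70 times in aPD-1 and 1.69 times in IgG, Ifi203 at 2.01 times in aPD-1 and 1.80 times in IgG, Ifi205 at 1.85 times in aPD-1 and 1.71 times in IgG, and Ifi27l2a at 1.84 times in aPD-1 and 1.66 times in IgG. Serpina3g, Pydc4, Gpsm3, Smap2 and Cpq stood at 1.62 to 2.22 times in both libraries. Among the 12 lowest, of which Cdc20 alone passed 1.5-fold in both libraries, were Cdc20, the activator of the anaphase-promoting complex, at 0.59 times in aPD-1 and 0.63 times in IgG, Cenpa at 0.64 times in aPD-1 and 0.72 times in IgG, and Mybl2 at 0.68 times in both, besides genes of other kinds such as Gdf15 and Tnnt2. Ankrd1, Sms and Zfos1, which were among the 12 highest with Il1rl1, were among the 12 lowest with Il33.

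Some gene lists stood on opposite sides for receptor and ligand, and others on the same side. For the 13 stromal and matrix genes of at least 20 CPM, the median log2 ratio of cells with the gene over cells without was −0.61 in aPD-1 and −0.53 in IgG for Il1rl1, and 0.36 in both libraries for Il33, beside −0.02 in aPD-1 and −0.05 in IgG over all genes for Il1rl1 and 0.03 in aPD-1 and 0.04 in IgG for Il33. The 16 interferon gamma genes stood at −0.28 in aPD-1 and −0.22 in IgG with Il1rl1, and at 0.41 in aPD-1 and 0.33 in IgG with Il33. The 11 type I interferon genes stood at −0.26 in aPD-1 and −0.15 in IgG with Il1rl1, and at 0.43 in aPD-1 and 0.45 in IgG with Il33. With Il33, 16 of 16 interferon gamma genes and 11 of 11 type I genes were above matched cells in each library. Over all 4644 genes, 2615 in aPD-1 and 2769 in IgG were above matched cells with Il33. The 14 G2/M genes were lower with Il33 (−0.45 in aPD-1 and −0.26 in IgG) and near the middle of all genes with Il1rl1 (−0.01 in aPD-1 and 0.04 in IgG). The 16 S phase genes stood at 0.12 in aPD-1 and −0.001 in IgG with Il1rl1, and at −0.18 in aPD-1 and −0.15 in IgG with Il33. On the same side for both were the 15 IL-1 receptor signalling genes, at 0.08 in aPD-1 and 0.02 in IgG with Il1rl1 and at 0.05 in aPD-1 and 0.11 in IgG with Il33. So were the 10 genes induced by IL-33, at 0.09 in aPD-1 and 0.05 in IgG with Il1rl1 and at 0.28 in aPD-1 and 0.22 in IgG with Il33, and the 16 serum and ERK response genes, at 0.05 in aPD-1 and 0.16 in IgG with Il1rl1 and at 0.27 in aPD-1 and 0.08 in IgG with Il33. The 15 cholesterol synthesis genes stood at −0.29 in aPD-1 and −0.33 in IgG with Il1rl1, and at −0.10 in aPD-1 and 0.03 in IgG with Il33. Both comparisons use the same cells of each library, so they are not independent of each other.

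The fibroblast markers went with the ligand. They summed to 370 CPM in aPD-1 cells with Il1rl1 and 721 CPM in those without, and to 627 CPM in IgG cells with Il1rl1 and 1012 CPM in those without. With Il33 they summed to 1056 CPM in aPD-1 cells with the ligand and 621 CPM in those without, and to 1384 CPM in IgG cells with the ligand and 908 CPM in those without. Of the genes past 1.5-fold, 4 were both lower with Il1rl1 and higher with Il33, which is 8.33% of the 48 and 16.7% of the 24, beside 1.03% of all genes lower with Il1rl1 and 0.517% higher with Il33. Of the 15 IL-1 receptor signalling genes, 0 were past 1.5-fold with Il1rl1 in both libraries, which is near the shares over all genes and no result about the list.

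**Figure D5:**
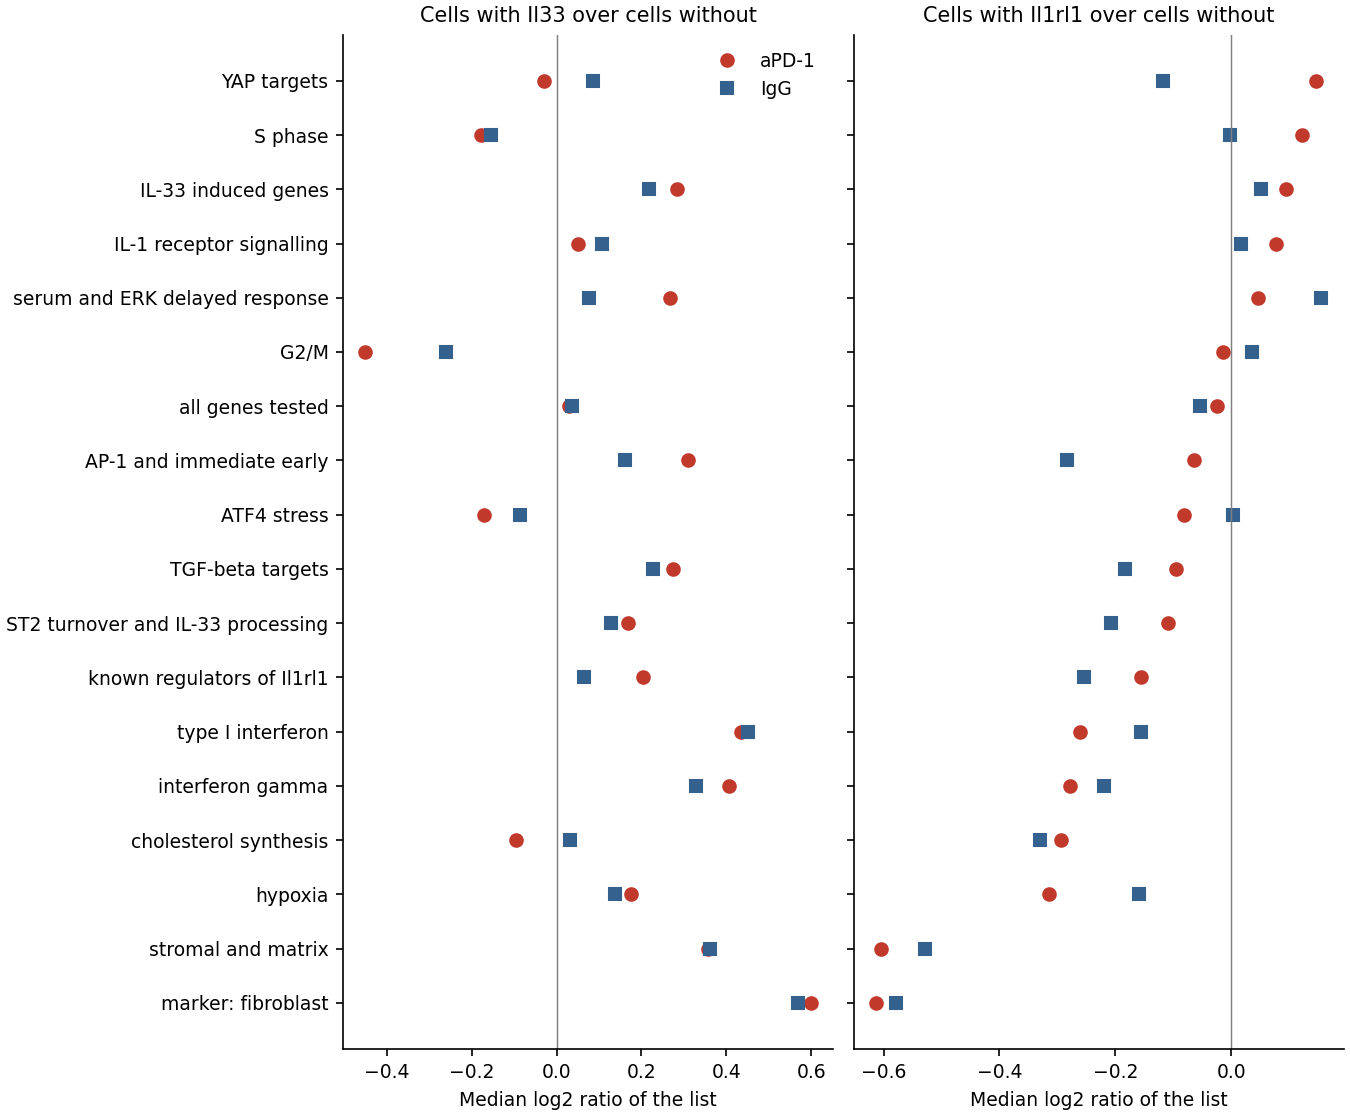
Median log2 ratio of each gene list in cells with Il33 over cells without (left) and cells with Il1rl1 over cells without (right), at matched depth, in aPD-1 (red circles) and IgG (blue squares), for lists with at least 5 genes of at least 20 CPM. Stromal and matrix genes, fibroblast markers and interferon lists lie above 0 for Il33 and below 0 for Il1rl1 in both libraries.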

How the data were processed

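Single-cell 3′ transcript counts were analysed for 1 aPD-1 and 1 IgG library, grouped by the treatment label. The deposited matrices hold UMI counts per gene and barcode, not normalised, and per the file headers Cell Ranger 3.0.2 made them. The submitters' processing notes also name Seurat 2.1.0 and the mouse build mm10, with no gene annotation named. The aPD-1 matrix held all 737280 barcodes and the IgG matrix 4351, of which 4351 had at least 500 UMIs, so the same floor of 5000 UMIs and maximum of 10% mitochondrial UMIs were applied to both. The kept cells ranged from 5025 to 71494 UMIs in aPD-1 and from 5070 to 86568 UMIs in IgG. Doublets were not called here and remain in the sums.

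CPM are the UMIs of a gene over all UMIs of the cells summed. Levels carry exact Poisson intervals, shares exact Clopper-Pearson intervals, and ratios exact conditional binomial intervals at 95%, all for counting error only. Odds ratios carry a normal interval on the log scale, with a pseudocount of 0.5 added to each count of cells. PCR duplicates are collapsed by the UMIs. No p-value was computed, because cells are not replicates. Cells were clustered over both libraries without the 3 members and the mitochondrial genes, in scanpy 1.11.5 with leidenalg 0.10.2, on log counts per 10000, 2000 variable genes, 30 components, 15 neighbours and resolution 0.5. A cluster took a type name with at least 3 markers among its top 10 genes by fold. Cells with a gene were set against cells without it in the same of 10 depth classes per library, with numpy 2.4.6, scipy 1.17.1 and pandas 2.3.3 under Python 3.11.15. The rule for ratios between the libraries and the comparison at matched depth were tried on simulated counts. The simulated library sums varied by counting error only. Thinning, joint detection and clustering were not simulated. Gene positions and transcripts are those of GENCODE M21 on GRCm38, which may differ from the annotation of the counts. How reads of near-identical or overlapping genes were split cannot be seen in the counts.

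The members and gene lists were chosen with earlier results of these data known. Named genes were the members, each IL-1 family ligand and receptor with a UMI, up to 4 highest and 4 lowest of the other pathway lists by ratio from a mean of 10 CPM, and the 12 highest and 12 lowest genes by the weaker of both libraries from 20 CPM, without ribosomal, mitochondrial, haemoglobin and unnamed gene models. Genes named beside these were chosen after their values were seen. Some genes that these rules chose are not reported here. Alternatives covered the UMI floor, the mitochondrial maximum, the scaling, the weight and depth of cells, the clusters, the thinning, the depth classes and the filters on low genes.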

Additional observations from a re-analysis of the deposited data

Results flagged for a closer look

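Il1rl1 also appeared in barcodes that were left out. In the 81 aPD-1 barcodes with at least 5000 UMIs and over 10% mitochondrial UMIs, it had 23 UMIs, or 38.5 CPM (interval 24.4 to 57.8), spread over 10 barcodes, against 6 UMIs and 7.53 CPM (2.76 to 16.4) in the 89 IgG barcodes of that kind. Il33 stood at 3.35 CPM in the same aPD-1 barcodes and 33.9 CPM in the IgG ones.

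The 515790 aPD-1 barcodes with 1 to 99 UMIs, which hold RNA free of cells, had 60 Il1rl1 UMIs, or 14.2 CPM (interval 10.8 to 18.2), 51 Il33 UMIs, or 12 CPM (8.97 to 15.8), and 35 Il1rap UMIs, or 8.27 CPM (5.76 to 11.5). These levels are near those of the kept aPD-1 cells, and the IgG matrix holds no such barcodes, so they could not be compared between the libraries. Their part in the cells with 1 UMI of a gene was not tested.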

How the results depend on the processing

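Of 109 values recomputed under another setting, 79 stayed within the counting interval of the main value (counts of genes: within 1.5 times), 29 moved and 1 changed direction. Some of the 79 could hardly move, so the tally does not measure stability. The named genes that kept their direction had been chosen by their ratios. The main odds ratio of Il1rl1 with Il33 had an interval of 0.003 to 0.746 in aPD-1 and 0.010 to 2.67 in IgG. The ratio of Il1rl1 stayed above 1 in all 17 settings, from 2.37 with the IgG cluster shares to 6.07 in the middle tertile of cells by depth, with 2.51 in the lowest tertile. The Il33 ratio of 0.575 turned to 1.08 in the lowest tertile of cells and was 0.654 in the middle and 0.366 in the highest tertile. It was 0.656 without the cluster led by histone genes, 0.661 with every cell weighted equally, 0.655 with cells thinned to 5000 UMIs and 0.724 with the IgG cluster shares. The Il1rap ratio was 1.27 with thinned cells and 1.05 to 1.19 in its other settings. Without ribosomal protein and mitochondrial genes in the total, it was 1.17 with an interval of 1.04 to 1.33, which leaves out 1. The ratio of Il1rl1 shares was 4.80 at 2000 UMIs per cell. The counts of genes with Il1rl1, 17 higher and 48 lower, became 36 and 121 when at least 2 UMIs were asked, 8 and 11 within clusters, 8 and 21 from 50 CPM, and 97 and 206 from 2 CPM, the filters testing fewer or more genes. Those with Il33, 24 and 1, became 59 and 3, 7 and 0, 10 and 0, and 115 and 38 in the same settings. The pathway count of 7, which includes the selected Il1rl1 and Il33, became 14 with no minimum CPM and 1 at 2-fold. The cause of the other shifts was not tested. The tertiles by depth, the top cells, the histone cluster, the filter from 2 CPM and the comparison for Il33 were added after seeing the data. Counting only clusters with at least 100 cells of each library, Il1rl1 was higher in aPD-1 in 8 of 8 at resolution 1 (interval beyond 1 in 4, lowest ratio 1.06) and in 5 of 5 clustered without cell cycle genes (interval beyond 1 in 3). Il33 was lower in 6 of 8 and 4 of 5, and higher with an interval beyond 1 in 1 cluster of each, at 1.39 (1.13 to 1.72) and 1.64 (1.37 to 1.97). In some smaller clusters Il1rl1 had too few UMIs to read a direction. Cluster 7 had 0 in aPD-1 against 2 in IgG. At resolution 1, cluster 10 had 0 in aPD-1 against 4 in IgG (ratio up to 7.87), and cluster 9 had 2 in aPD-1 against 0 in IgG. No paired analysis was possible because each group has 1 library. Depth limits the shares: a gene of 10 CPM is missed in most cells.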

Other observations

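Genes from 2 CPM upwards were added after the data had been seen, and 5 of the 12 highest with Il33 are given. Bgn, the matrix proteoglycan biglycan, stood at 5.38 times the matched level in aPD-1 cells with Il33 (interval 4.24 to 6.72) and 2.47 times in IgG (1.96 to 3.07). Plac8 stood at 3.71 times in aPD-1 (3.16 to 4.33) and 3.37 times in IgG (2.97 to 3.81), the intermediate filament Des at 2.90 times in aPD-1 and 2.53 times in IgG, Ltbp1, which binds latent TGF-beta, at 2.50 times in aPD-1 and 2.55 times in IgG, and the adhesion molecule Icam1 at 2.50 times in aPD-1 and 2.38 times in IgG. Lpl, which was higher with Il1rl1, stood at 0.33 times with Il33 in aPD-1 (0.19 to 0.52) and 0.30 times in IgG (0.17 to 0.50). Ptgds, a prostaglandin synthase, stood at 0.34 times in aPD-1 and 0.35 times in IgG.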
